A study of Mus musculus with 8 samples.

Results

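The 34 genes described here carry out cholesterol and lipid metabolism in mouse cells. They were taken by symbol from a named list, which uses no measured value as a criterion but was drawn up with earlier results of these data known, out of 19120 genes measured on microarrays of primary microglia, the resident macrophages of the brain. All 34 were on the array, and all 34 passed the filter on dim signals. Scd1 was well above background on 7 of the 8 arrays, and the other 33 genes on all 8. By role, 15 of them make sterols, 6 sense sterol or carry it, 5 belong to the LXR receptors and cholesterol export, 4 make fatty acids, and 4 oxidise, store or release cholesterol.

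The microglia came from C57BL/6 mice and were exposed for 3 h to Fc fused to residues 71 to 132 of Ecrg4, to Fc fused to residues 133 to 148, to Fc alone, each at 20 µg/ml, or to PBS. Ecrg4 is a secreted protein that is cut into smaller peptides, and Fc is the constant part of an antibody, so Fc alone is the control for the fused part of both fragments. Each treatment had 2 one-colour Agilent arrays, 1 in each of 2 numbered sets. The labels do not say what distinguishes the sets, nor whether they were separate cultures or animals, so p-values measure only the spread between these arrays. Values are log2 scanner signals with each array's 75th percentile at 0, and differences between groups are log2 differences. All p-values are from limma, and adjusted ones are corrected over the 19120 genes by the Benjamini-Hochberg method, with a threshold of 0.05. The precision of every value is limited by the number of arrays.

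The labelled cell type was checked against 12 microglial markers, of which 11 were measured, and Csf1r, Trem2 and Itgam were well above background on all 8 arrays. Sall1, a transcription factor that defines microglia, did not pass the filter. The sets differed widely. Of all genes, 59.3% differed between set 2 and set 1, and for that reason most values below are given within each set. Cx3cr1, a microglial chemokine receptor, lay between -3.25 and -0.74 in set 2, against 4.58 to 4.71 in set 1, whereas Csf1r differed by -0.01 between the sets (adjusted p = 0.897). All 3 measured fibroblast markers of 5, and 5 of the 7 measured astrocyte markers of 9, were lower in set 2.

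Cells make cholesterol from acetyl-CoA through mevalonate and squalene. When sterol is scarce, Scap escorts the SREBP transcription factors out of the endoplasmic reticulum and they switch on the synthesis genes, and the Insig proteins hold Scap back when sterol is plentiful. Oxysterols, which are oxidised cholesterols, activate the LXR nuclear receptors, whose target genes export cholesterol and limit its uptake. Microglia take up cholesterol-rich myelin debris and depend on this export, and Ch25h, the enzyme that makes an immune oxysterol, is a gene that inflammatory stimuli are known to induce in mouse macrophages.

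Ch25h was the member with the widest difference between the treatments. On the arrays of Ecrg4(71-132) its log2 signal was 6.60 in set 2 and 6.91 in set 1. On those of Ecrg4(133-148) it was 5.44 and 6.17, on those of Fc 4.26 and 5.32, and on those of PBS 3.92 and 4.63, each with set 2 first. The order of the treatments was the same in both sets, and the 4 arrays of the fragments lay above the 4 arrays of Fc and PBS, although the lowest fragment array and the highest Fc array were only slightly apart.

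Ecrg4(71-132) gave 3.91 times the Ch25h signal of Fc, a log2 difference of 1.97 ± 0.47 (SE, 2 arrays a group), and the differences within set 2 and set 1 were 2.34 and 1.59. The limma test across all genes did not pass (adjusted p = 1), and with the set as a replicate block the adjusted p was 0.177. Without the set 1 array of Ecrg4(71-132), the fit with the block passed with a difference of 2.23 (adjusted p = 0.0487), and against PBS with one of 2.75 (adjusted p = 0.0416). That fit leaves Ecrg4(71-132) with 1 array, which is assumed to vary like the other groups. In it 482 genes passed against Fc and 1078 against PBS, and Acat2 was the other member among them. Ecrg4(133-148) gave 2.02 times the Fc signal, a difference of 1.01 ± 0.47 (SE, 2 arrays a group), with 1.18 in set 2 and 0.85 in set 1. It did not pass either, with an adjusted p of 1 and of 0.836 with the block. Against PBS the differences were 2.48 for Ecrg4(71-132) and 1.53 for Ecrg4(133-148). These comparisons share their control arrays with each other.

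Fc itself gave a higher Ch25h signal than PBS in both sets, by 0.35 in set 2 and 0.69 in set 1. The mean difference of 0.52 ± 0.47 (SE, 2 arrays a group) did not pass (adjusted p = 1). In set 1 the step between Fc and PBS was 0.69 and the step between Ecrg4(133-148) and Fc was 0.85.

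**Figure D1:**
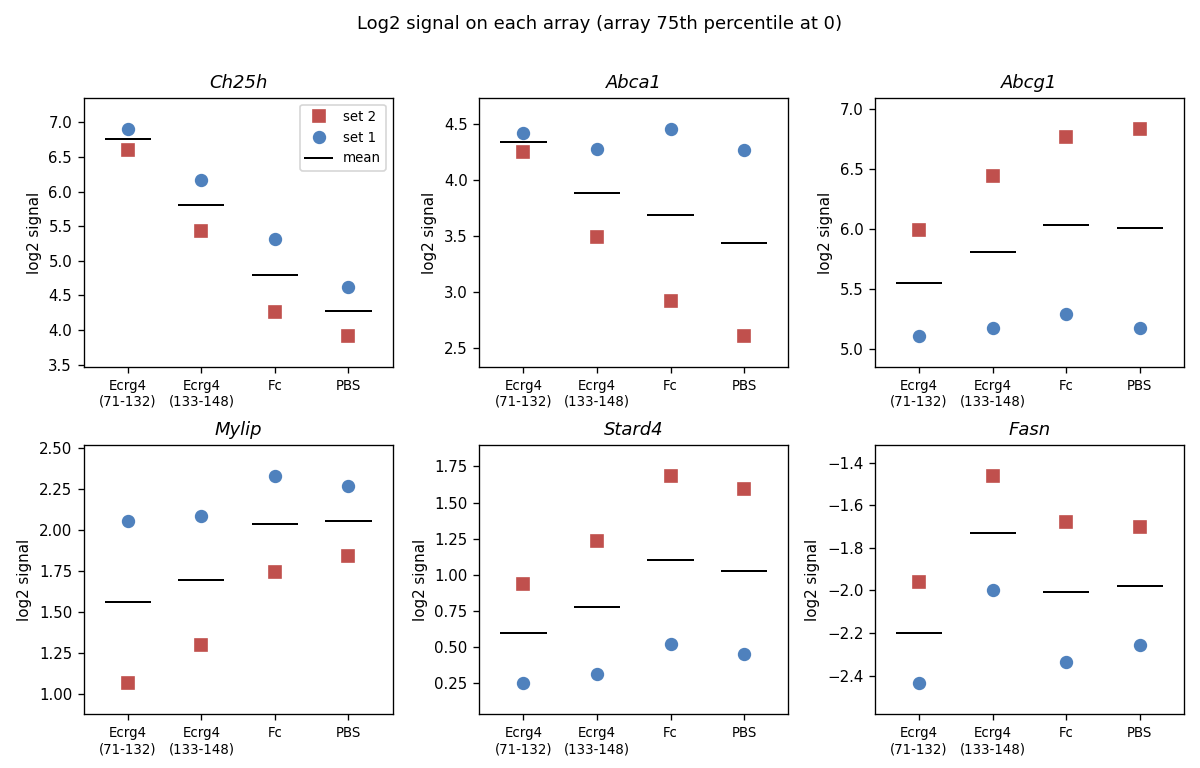
Log2 signal (vertical axis, array 75th percentile at 0) of 6 genes by treatment (horizontal axis), with squares for set 2, circles for set 1 and a line for the mean of both arrays. Ch25h falls in the same order of treatments in both sets, whereas Abca1 spans 2.61 to 4.25 in set 2 and only 4.27 to 4.45 in set 1.

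The bases before the Ch25h start are shown because Ch25h is the gene that stood out between treatments. RefSeq gives the promoter as chr19:34475149-34475398 of GRCm38.p6 on the minus strand, and the capitals mark TGACGTCA, the letters of a cAMP response element, which begin 61 bases before the start. These letters were chosen after the sequence was seen. They stand in the 250 bases before the start of 1.77% of 27025 genes, searched on both strands, and of 1 of the 26 members with a RefSeq promoter entry. A form of the interferon response element and a kB-like form were in none of the 26, and in 3.46% and 1.36% of genes.
Ch25h: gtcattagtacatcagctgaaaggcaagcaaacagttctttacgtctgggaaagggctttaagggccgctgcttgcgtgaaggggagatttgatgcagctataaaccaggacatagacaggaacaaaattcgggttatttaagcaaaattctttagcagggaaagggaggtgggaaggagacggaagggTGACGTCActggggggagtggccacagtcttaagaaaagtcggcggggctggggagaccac

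None of the 34 genes passed the test for Ecrg4(71-132) against Fc, where 0% of all genes passed. At an unadjusted p under 0.05 Ch25h was the sole member, beside 3.37% of all genes, and with the set as a block 9 members reached that mark, beside 18.6% of all genes. Ch25h was also the sole member over 1.5-fold higher in both sets (1.34% of all genes), and no member was over 1.5-fold lower in both (1.43%). Of the 34, 4 were higher in both sets and 15 were lower, beside 28.5% and 36.4% of all genes. The median difference of the 34 was -0.08, against -0.02 over all genes.

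Of the LXR target genes among the members, Abcg1 and Mylip were lower than under Fc in both sets under Ecrg4(71-132), while Abca1 differed between the sets. Abca1, which passes cholesterol to lipid-poor apolipoproteins, had 4.25 in set 2 and 4.42 in set 1 under Ecrg4(71-132), against 2.92 and 4.45 under Fc. In set 2 it was 1.33 above Fc, and in set 1 it was 0.03 below. Abcg1, which passes cholesterol to high-density lipoprotein, had 6.00 in set 2 and 5.11 in set 1 under Ecrg4(71-132), against 6.77 and 5.30 under Fc, so it was lower in both sets, by a mean of -0.48 ± 0.83 (SE, 2 arrays a group). Mylip, a ubiquitin ligase that limits cholesterol uptake, had 1.06 and 2.05 under Ecrg4(71-132), against 1.74 and 2.33 under Fc, a mean difference of -0.48 ± 0.46 (SE, 2 arrays a group), and its dimmer probe differed by -0.45. Of the receptors themselves, Nr1h3 (LXR alpha) differed by -0.27 in set 2 and -0.16 in set 1, and Nr1h2 (LXR beta) by 0.16 and -0.11. The adjusted p of each of these 5 genes was 1 without the block and between 0.235 and 0.897 with it.

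Of 9 other measured LXR target genes out of a list of 10, 1 was higher and 7 were lower than under Fc in both sets under Ecrg4(71-132). The shares of all genes were 28.5% and 36.4%. The median of the 9 was -0.10, and none passed the test. Under Ecrg4(133-148), 1 was higher and 6 were lower than under Fc in both sets, beside 28.5% and 30.6% of all genes, with a median of -0.07.

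Stard4, a soluble sterol carrier and SREBP target, had 0.94 in set 2 and 0.25 in set 1 under Ecrg4(71-132), against 1.68 and 0.52 under Fc. The mean difference was -0.51 ± 0.62 (SE, 2 arrays a group, adjusted p = 1). Its 2 probes disagreed, since the dimmer one differed by 0.13 the other way. The other sensing genes differed less on their brightest probes. Insig1 and Insig2, which hold Scap in the endoplasmic reticulum, differed by 0.00 and 0.01, Scap by -0.07, and the SREBP genes Srebf1 and Srebf2 by 0.03 and -0.11. The dimmer Srebf2 probe, also well above background on every array, differed by 0.30 the other way.

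Of the 15 sterol synthesis genes, 3 were higher and 6 lower than Fc in both sets under Ecrg4(71-132), with a median of -0.08. The shares of all genes were 28.5% and 36.4%. The mean differences ran from -0.44 for Acat2, the cytosolic thiolase at the start of the pathway, to 0.30 for Cyp51, the lanosterol demethylase. Acat2 rested on 1 array, with -2.64 in set 2 against -1.61 under Fc, but -2.39 in set 1 against -2.54. Hsd17b7, which works in sterol demethylation, was the synthesis gene with the closest values in both sets, 0.31 above Fc in set 2 and 0.28 above in set 1. Mvk, the mevalonate kinase, was lower by 0.54 in set 2 and by 0.16 in set 1. The entry enzyme Hmgcs1 differed by -0.11, the squalene synthase Fdft1 by -0.08, the squalene epoxidase Sqle by -0.01 and the final reductase Dhcr7 by -0.07. For Sqle the sets went opposite ways, with -0.35 in set 2 and 0.34 in set 1.

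The 4 fatty acid genes had mean differences from Fc between -0.22 and -0.19 under Ecrg4(71-132). Fasn, the fatty acid synthase, was lower by 0.29 in set 2 and 0.10 in set 1, and Acaca, which makes its malonyl-CoA, by 0.22 and 0.17. The Acaca values are those of its brightest probe, and its dimmer probes had mean differences of -0.16 and 0.03. The desaturases Scd1 and Scd2 were lower in set 2, by 0.58 and 0.59, and higher in set 1, by 0.19 and 0.15. The Scd1 array that was not well above background was that of Ecrg4(71-132) in set 2. Against PBS all 4 genes were lower in both sets, beside 31.5% of all genes. Soat1, which stores cholesterol as esters, was lower than Fc by 0.44 in set 2 and 0.19 in set 1, and the lysosomal exporters Npc1 and Npc2 differed by -0.07 and 0.02.

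**Figure D2:**
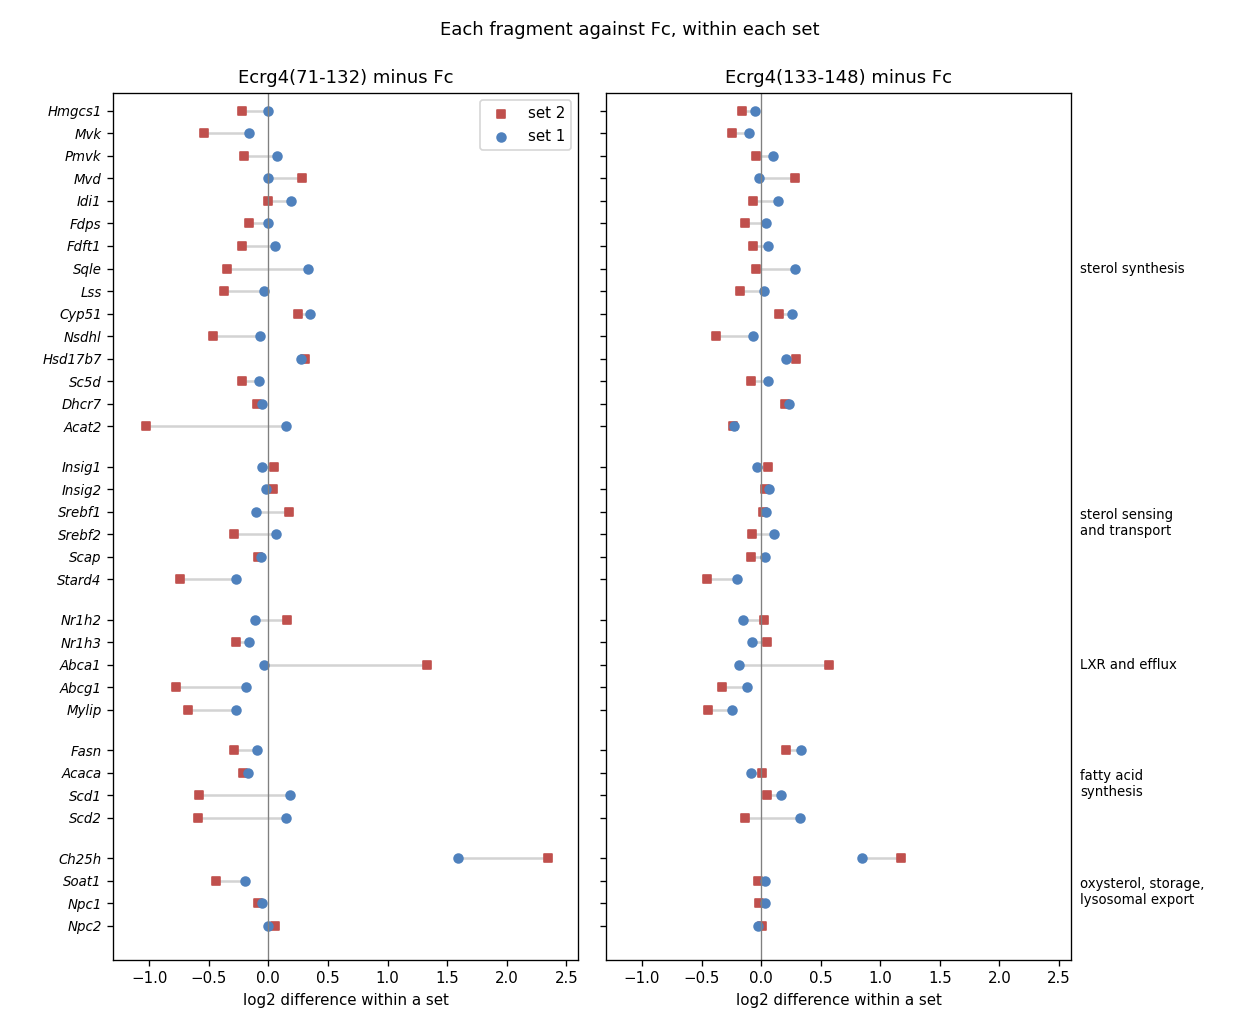
Log2 difference from Fc (horizontal axis) of each of the 34 genes (vertical axis, by role) for Ecrg4(71-132) on the left and Ecrg4(133-148) on the right, with squares for set 2 and circles for set 1. Ch25h stands to the right in both sets and both panels, and Abca1 in set 2 alone, at 1.33 and 0.57.

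Under Ecrg4(133-148) the differences from Fc were smaller. None of the 34 genes passed the test (0% of all genes), none was under an unadjusted p of 0.05 (0.46% of all genes), and with the block 3 were (5.26%). Ch25h was again the sole member over 1.5-fold higher in both sets, beside 0.303% of all genes, and none was over 1.5-fold lower in both (0.387%). Of the 34, 8 were higher and 7 lower in both sets, beside 28.5% and 30.6% of all genes, and their median was 0.00.

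Mylip had 1.30 in set 2 and 2.08 in set 1 under Ecrg4(133-148), which was 0.44 and 0.24 below Fc. Stard4 had 1.23 and 0.32, which was 0.45 and 0.20 below Fc on its brighter probe, while the dimmer one differed by 0.07 the other way. Abca1 had 3.49 in set 2 and 4.27 in set 1, which was 0.57 above Fc in set 2 and 0.18 below it in set 1. Abcg1 was 0.33 below Fc in set 2 and 0.12 below in set 1. Fasn, by contrast with its values under Ecrg4(71-132), was 0.21 above Fc in set 2 and 0.34 above in set 1. None of these passed, with adjusted p of 1, and of 0.836 to 0.952 with the block.

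The 2 fragments were compared with each other as 1 pair, at the same dose and time. Ch25h was lower under Ecrg4(133-148), at 5.44 in set 2 and 6.17 in set 1, against 6.60 and 6.91 under Ecrg4(71-132). The difference was -0.95, with a 95% interval from -2.14 to 0.23, and in the fit with the block from -1.44 to -0.46 (adjusted p = 1 and 0.714). It was the sole member over 1.5-fold lower in both sets, beside 1.12% of all genes, and none was over 1.5-fold higher in both (0.539%). No member and 0% of all genes passed the test. At an unadjusted p under 0.05 there was no member either, beside 0.737% of all genes, and with the block there were 4, beside 6.33%.

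Fasn went the other way. It had -1.46 in set 2 and -2.0 in set 1 under Ecrg4(133-148), against -1.96 and -2.44 under Ecrg4(71-132). The difference of 0.47 had a 95% interval from -0.44 to 1.37, and in the fit with the block from 0.28 to 0.66 (adjusted p = 1 and 0.714). Acaca differed by 0.16, Scd1 by 0.31 and Scd2 by 0.32 in the same direction. In both sets 3 of the 4 fatty acid genes were higher under Ecrg4(133-148), beside 33.5% of all genes.

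For Abca1 the difference was -0.45, with an interval from -2.31 to 1.40. Over the 34 genes, 19 were higher and 7 lower under Ecrg4(133-148) in both sets, beside 33.5% and 23.7% of all genes, with a median of 0.08 against 0.01 over all genes. The intervals of the sterol synthesis genes with the block reached from -0.69 to 1.09 at the widest, for Acat2, and from -0.16 to 0.22 at the narrowest, for Fdps, the farnesyl diphosphate synthase. Those of Dhcr7, at 0.05 to 0.52, and of Soat1, at 0.08 to 0.55, lay above 0 with the block, and neither gene passed (adjusted p = 0.714 for each).

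**Figure D3:**
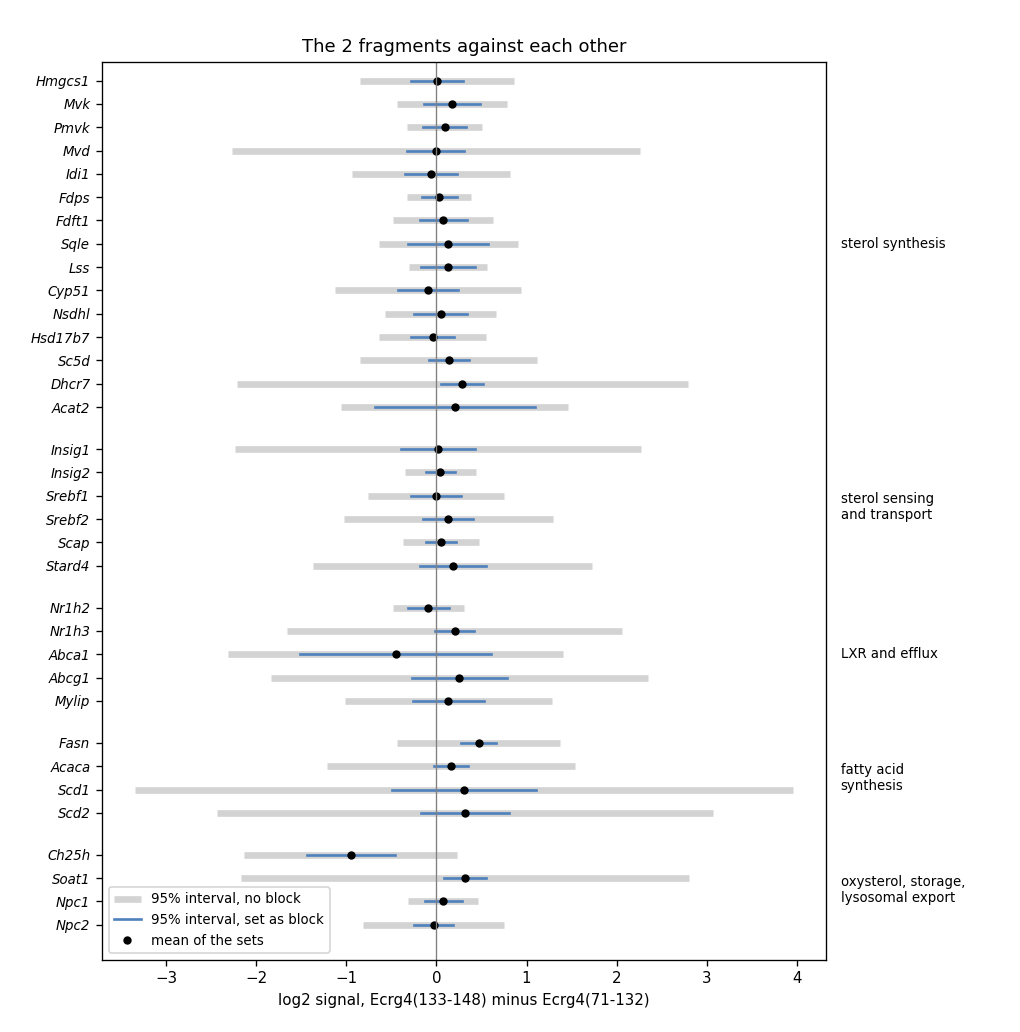
Log2 difference of Ecrg4(133-148) minus Ecrg4(71-132) (horizontal axis) for the 34 genes (vertical axis, by role). Points are means of both sets, wide grey bars are 95% intervals without the block and thin blue bars are those with the set as a block; with the block the interval of Ch25h lies below 0 (-1.44 to -0.46) and that of Fasn above it (0.28 to 0.66).

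The differences between Fc and PBS were small in these genes. None passed the test (0% of all genes), none was under an unadjusted p of 0.05 (0.267% of all genes), and with the block Ch25h alone was (1.86%). None was over 1.5-fold higher (0.183% of all genes) or lower (0.382%) in both sets. In both sets 12 were higher and 3 lower, beside 39.6% and 16.7% of all genes, with a median of 0.03 for the 34 and 0.03 for all genes. After Ch25h, the members with the widest mean differences of 1 sign in both sets were Abca1 and Scd2. Abca1 had 2.92 in set 2 and 4.45 in set 1 under Fc, against 2.61 and 4.27 under PBS. Scd2 had 3.31 and 4.70 under Fc, against 3.33 and 5.0 under PBS. For Scd1 the sets went opposite ways, with 0.17 in set 2 and -0.92 in set 1.

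Against PBS, Ecrg4(71-132) had 9 members higher and 16 lower in both sets, beside 34.3% and 31.5% of all genes, and Ecrg4(133-148) had 14 higher and 6 lower, beside 36.3% and 23.8%. Ch25h was the sole member over 1.5-fold higher in both sets in each comparison, beside 1.88% and 0.56% of all genes. No member was over 1.5-fold lower in both sets, beside 2.12% and 0.947%, and none passed the test (0% of all genes in each). At an unadjusted p under 0.05 Ch25h was the sole member in each, beside 4.88% and 0.973%, and with the block there were 6 and 3, beside 23.7% and 9.15%. Among the 33 genes well above background on all 8 arrays, the next largest differences of 1 sign in both sets were those of Abca1, 0.90 and 0.44, and of Mylip, -0.50 and -0.36, for Ecrg4(71-132) and Ecrg4(133-148) in that order. Those of Abca1 came mostly from set 2, with 4.25 and 3.49 against 2.61 under PBS. In set 1 Abca1 had 4.42 and 4.27, against 4.27 under PBS. Scd1, which was dimmer, was -0.57 under Ecrg4(71-132) against PBS.

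Whether the fragments acted differently in the 2 sets was examined with a term for the set applied to both fragments against both controls, which was added after the values had been seen and leaves 2 residual degrees of freedom. None of the 34 genes passed it (0% of all genes). At an unadjusted p under 0.05 there were 5, namely Abca1, Mvd, Lss, Mylip and Stard4, beside 11.2% of all genes. Abca1 was 1.11 above the controls in set 2 and 0.02 below them in set 1, a difference of 1.12 ± 0.25 (SE; 4 arrays a set) with an adjusted p of 0.433. In set 2, where Abca1 ran from 4.25 under Ecrg4(71-132) through 3.49 under Ecrg4(133-148) and 2.92 under Fc to 2.61 under PBS, Cx3cr1 lay at -0.74, -1.45, -2.36 and -3.25 in the same treatments. In set 1 neither gene had such an order. Among the other measured microglial markers, Ptprc alone had that order in set 2, and it had it in set 1 too. P2ry12 had -1.52, -1.11, -0.68 and -0.69 in set 2 in the same treatments. The summed microglial signal there was 9.05, 9.20, 9.27 and 9.21. The part of Cx3cr1-bearing cells in the Abca1 values was not tested.

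The sets differed in most of the 34 genes. In Ch25h, Hsd17b7, Lss and Mvk alone, the widest mean difference between treatments was larger than that between the sets. Of the 34, 28 passed the test between set 2 and set 1, which also holds for 59.3% of all genes. Of the members 23 were higher in set 2, beside 36.4% of all genes, and 5 were lower, beside 22.8%. The arrays of the sets did not overlap for 26 members, beside 55.6% of all genes, of which 22 lay higher and 4 lower, beside 34.2% and 21.3%. The median over the 34 was 0.42, against 0.11 over all genes. In such bulk samples fewer cells of a type and less RNA per cell cannot be told apart.

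Synthesis and sensing genes were higher in set 2. Of the 15 synthesis genes 11 were higher and none was lower, beside 36.4% and 22.8% of all genes. Fdps, Lss, Pmvk and Acat2 did not pass. The median of the 15 was 0.40. Dhcr7, which completes cholesterol, lay between 1.66 and 1.95 in set 2, against 0.08 to 0.40 in set 1. Its means were 1.81 ± 0.13 and 0.19 ± 0.14 (SD, 4 arrays a set), a 3.07-fold difference with a limma adjusted p of 0.000156. Mvd, the mevalonate diphosphate decarboxylase, lay between 3.37 and 3.76 in set 2, against 2.09 to 2.16 in set 1, a difference of 1.45 ± 0.08 (SE).

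The other synthesis genes that passed were higher by less. Cyp51 was 0.62 higher, Sc5d, the sterol desaturase, 0.61, Idi1, the isopentenyl diphosphate isomerase, 0.52, and Hmgcs1 0.50. Sqle was 0.40 higher, Nsdhl, a sterol dehydrogenase, 0.33, Hsd17b7 0.32, Mvk 0.31 and Fdft1 0.28. The smaller ones were the less stable. Sqle, Mvk and Fdft1 kept their call in 7, 6 and 9 of 16 alternatives. Nsdhl and Hsd17b7 kept it in 11 and 13, and Cyp51, Sc5d, Idi1 and Hmgcs1 in all 16. Among these alternatives each array was left out in turn. With treatment as a term, leaving out either array of a treatment gave the same fit. Each such fit is therefore counted for both arrays, here and below.

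All 6 sensing and transport genes were higher in set 2, beside 36.4% of all genes. Insig1 had -0.59 to -0.26 in set 2, against -2.07 to -1.84 in set 1, a 2.71-fold difference (adjusted p = 0.000707). Insig2 was only 0.17 higher, and its call held in 5 of 16 alternatives. Srebf2, which codes for the SREBP of the cholesterol genes, was 0.72 higher, Srebf1, which codes for that of the fatty acid genes, 0.44, and Scap 0.20. The call of Scap held in 9 of 16 alternatives, with an adjusted p of up to 0.144. Stard4 was 0.97 higher on its brighter probe, with 0.94 to 1.68 in set 2 against 0.25 to 0.52 in set 1, and 0.23 higher on the other.

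The promoters of 3 of these genes are shown because the group moved together between the sets. SREBP promoters are known for sterol response letters beside CCAAT boxes, which bind NF-Y. Capitals mark TCACNCCAC, a sterol response form, in Hmgcs1, CCAAT in Hmgcs1, Insig1 and Dhcr7, and CACGTG, an E-box, in Insig1, with CCAAT read on either strand. The windows are the 250 bases before the RefSeq start in GRCm38.p6, on the plus strand in all 3, at chr13:119690101-119690350, chr5:28071162-28071411 and chr7:143829964-143830213. Dhcr7 has other starts, whose windows hold no CCAAT.
Hmgcs1: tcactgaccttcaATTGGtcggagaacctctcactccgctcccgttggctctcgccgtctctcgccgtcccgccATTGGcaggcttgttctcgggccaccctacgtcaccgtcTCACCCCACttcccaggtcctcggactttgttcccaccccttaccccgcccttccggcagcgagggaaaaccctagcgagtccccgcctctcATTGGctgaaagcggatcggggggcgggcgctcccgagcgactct
Insig1: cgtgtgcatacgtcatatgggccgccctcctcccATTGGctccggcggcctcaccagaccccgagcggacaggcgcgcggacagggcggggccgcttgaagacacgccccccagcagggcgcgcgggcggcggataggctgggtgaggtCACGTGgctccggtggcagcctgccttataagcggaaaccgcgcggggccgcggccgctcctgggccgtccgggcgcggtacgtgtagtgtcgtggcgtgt
Dhcr7: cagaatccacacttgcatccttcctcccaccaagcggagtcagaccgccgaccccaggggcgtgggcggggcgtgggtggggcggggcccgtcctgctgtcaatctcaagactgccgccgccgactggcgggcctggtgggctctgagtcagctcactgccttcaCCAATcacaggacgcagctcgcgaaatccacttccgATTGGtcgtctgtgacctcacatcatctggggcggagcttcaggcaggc
CCAAT stood in 11 of the 12 synthesis genes and 4 of the 5 sensing genes with a promoter entry, and in 37.5% of 27025 genes. TCACNCCAC stood in 1 of the 26 members, Hmgcs1, and in 1.22% of genes, and CACGTG in 6 members and 6.86% of genes. GGGCGG, a GC box, stood in 19 members and 35.4% of genes. The searches covered both strands and describe letters, not binding.

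The LXR and export genes split between the sets. Abcg1, at 6.00 to 6.83 in set 2 against 5.11 to 5.30 in set 1, was 2.50-fold higher (adjusted p = 0.0018). Nr1h3, at 2.75 to 3.06 against 1.68 to 1.84, was 2.29-fold higher. Abca1 was lower in set 2, at 2.61 to 4.25 against 4.27 to 4.45, by a log2 difference of -1.03 ± 0.28 (SE, adjusted p = 0.032). That call was lost when either array of PBS, Fc or Ecrg4(133-148) was left out, with an adjusted p of up to 0.100. Both arrays of a treatment gave the same fit here. Mylip was lower too, at 1.06 to 1.84 against 2.05 to 2.33, by -0.70. Nr1h2 did not pass, with a difference of 0.15.

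Of the fatty acid genes, Acaca was 0.87 and Fasn 0.56 higher in set 2, while the desaturases were lower. Scd2 had 2.72 to 3.33 in set 2, against 4.70 to 5.03 in set 1, a 3.39-fold difference (adjusted p = 0.000688). Scd1 had -4.19 to -3.55 in set 2, against -1.77 to -0.85 in set 1, a log2 difference of -2.33. With normexp background correction it was -1.31, and 1 of its set 2 arrays was not well above background.

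Soat1 was 3.05-fold higher in set 2, at 2.01 to 2.46 against 0.57 to 0.79. Npc2 was 0.46 higher, and Npc1 did not pass at 0.16. Ch25h was lower in set 2 by -0.70 ± 0.13 (SE, adjusted p = 0.0099), although its arrays overlapped between the sets, since the treatments spread it over 3.92 to 6.60 in set 2 and 4.63 to 6.91 in set 1.

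**Figure D4:**
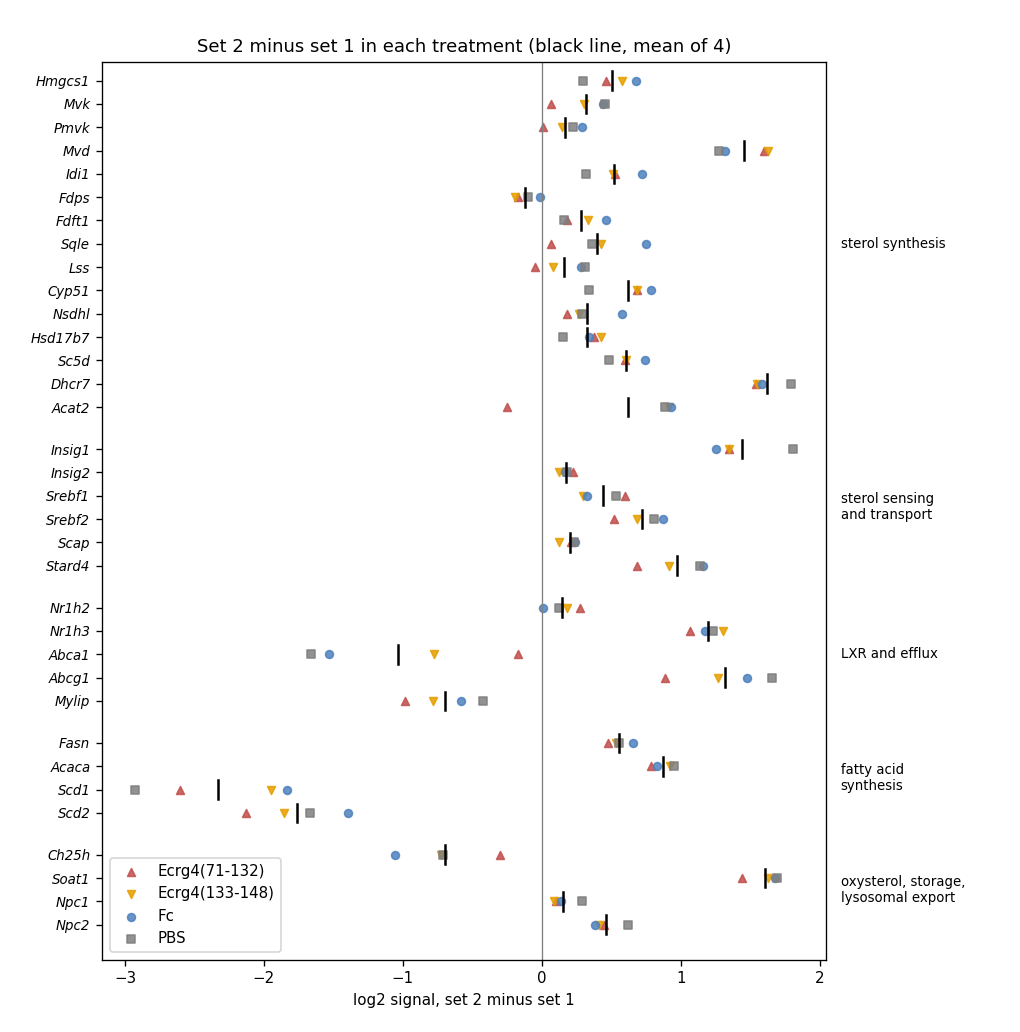
Log2 signal of set 2 minus set 1 (horizontal axis) for the 34 genes (vertical axis, by role) in each of the 4 treatments, with a black line at their mean. The 6 sensing genes lie right of 0 in every treatment, and Scd1, Scd2, Abca1, Mylip and Ch25h lie left of it in every treatment.

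Genes of the same pathways outside the 34 are given beside the 36.4% of all genes that were higher and the 22.8% that were lower in set 2. Of 11 other measured sterol synthesis and uptake genes out of a list of 12, 6 were higher and 2 lower in set 2. Msmo1, a sterol oxidase, was 0.95 higher, and Lbr, a sterol reductase of the nuclear envelope, was lower by -2.42. Of 13 other fatty acid genes out of 15, 5 were higher and 5 lower, with Lpin1, a phosphatidate phosphatase, 2.21 higher, Acsl1 1.5 higher, Elovl6, an elongase, at -2.66 and Acsl3 at -1.69. Of 9 other LXR targets 6 were higher and 2 lower, led by Lpl, the lipoprotein lipase, at 1.71. Of 20 other cholesterol handling genes 13 were higher and none was lower, with the scavenger receptor Cd36 at 1.77 and Pparg at 1.49.

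Markers of other cells differed between the sets along with these genes. The summed signal of the fibroblast markers, as log2, was -1.57 to -0.97 in set 2, against 4.44 to 5.55 in set 1. Col1a1 and Dcn, which are in that sum, were well above background on only 5 and 6 of the 8 arrays. The size of the fibroblast difference is therefore uncertain. The dimmer astrocyte markers were lower too. Of these Gfap and Slc1a3 were well above background on only 5 of the 8 arrays, so the size of their difference is not given. Aldoc and Aldh1l1, also on the astrocyte list, were higher, which put the summed astrocyte signal at 6.18 to 6.26 in set 2 against 4.89 to 5.41 in set 1. The summed microglial signal was 9.05 to 9.27 in set 2, against 9.48 to 9.58 in set 1, with 7 markers lower and 3 higher. Of 6 measured oligodendrocyte markers 3 were higher and 1 was lower. The part of these cells in the set differences of the 34 genes was not tested.

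**Figure D5:**
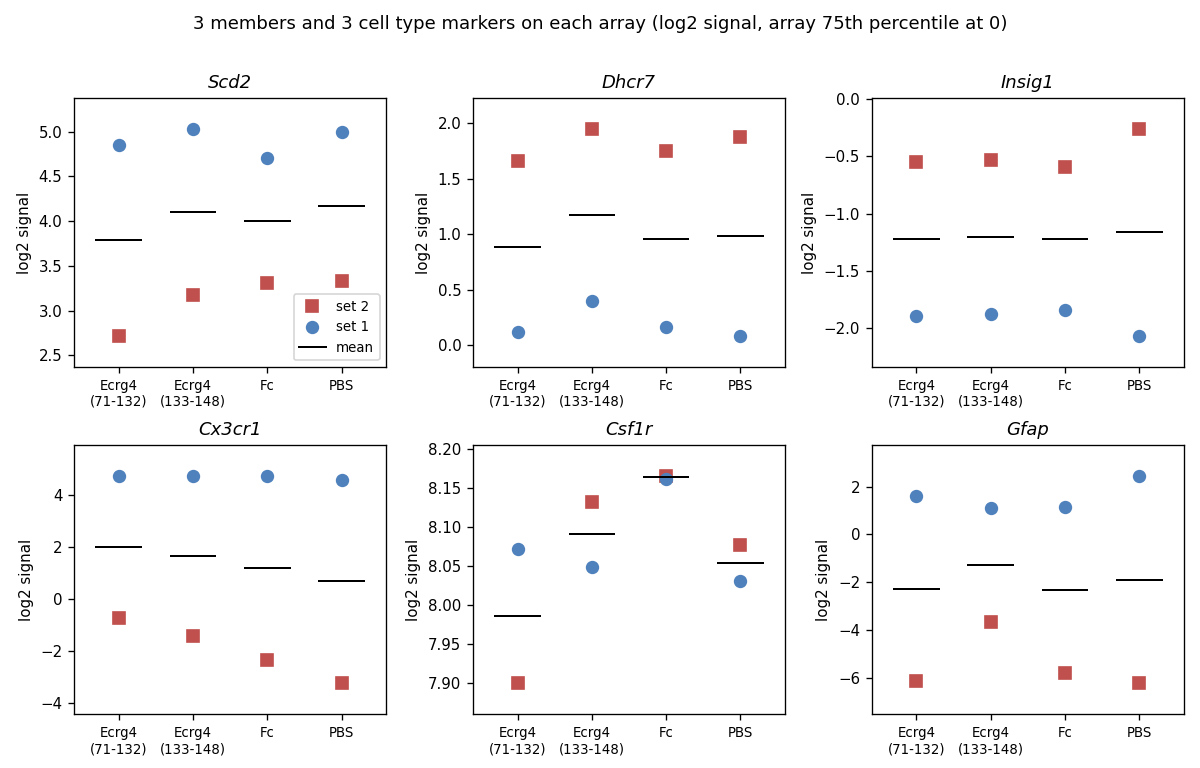
Log2 signal (vertical axis, array 75th percentile at 0) of Scd2, Dhcr7 and Insig1 and of the markers Cx3cr1, Csf1r (microglia) and Gfap (astrocytes) by treatment (horizontal axis), with squares for set 2, circles for set 1 and a line for the mean of both arrays. Scd2, Cx3cr1 and Gfap (well above background on 5 of the 8 arrays) are lower in set 2 in every treatment, Dhcr7 and Insig1 are higher, and Csf1r differs by -0.01.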

How the data were processed

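RNA of 8 samples was measured on one-colour Agilent arrays, all on 1 slide and scanned once. The deposited background-subtracted spot intensity came from Agilent Feature Extraction 11.0.1.1 (submitters' processing notes, per the labels). The deposited log2 table equals log2 of that intensity less a constant per array, which puts its 75th percentile near 0, and served as an alternative.

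Here each array's 75th percentile (494.6 to 809.3 intensity units) was taken off its log2 intensity, with outlying spots dropped and repeat spots of a probe averaged. RefSeq accessions (GRCm38.p6) named 28026 of the 55681 probes, and the rest kept the file's name. Probes had to be well above background on each array of at least 1 treatment, which left 25250, and the brightest stood for each gene. In R 4.3.3, limma 3.58.1 gave all arrays 1 mean a treatment, and the set comparison had treatment as a term.

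The sets pair the samples, since titles name them and their differences correlated at 0.78 to 0.86 across genes in 6 pairs of groups. Each SE marked 2 arrays a group is from the fit without the block, so it also holds the shift between the sets. For Abcg1 under Ecrg4(71-132) against Fc it was 0.83, and 0.20 with the block. The code of the fit with the block and of the set comparison was checked on simulated data with known changes. The check set no condition on calls from the treatment fit without the block. Members, lists and tests were chosen with earlier results of these data known. All members are named. By rule, array values are given for called members, those over 1.5-fold in both sets and the 3 largest per comparison, here often as ranges. Of other genes, those over 1.5-fold in both sets or the 2 largest called each way per list are named, of which some are not reported here.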

Additional observations from a re-analysis of the deposited data

How the results depend on the processing

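No treatment comparison called a gene with the set as a replicate block (0 genes in each of the 6). None did under the scalings, filters and probe rules tried, but these were run only without the block. There the shift between the sets counts as spread, so those fits had little power to call a gene. Leaving out 1 array each with the block gave 0 to 482 genes and 0 to 2 members for Ecrg4(71-132) against Fc, and 0 to 1078 genes and 0 to 2 members against PBS, the upper values without its set 1 array. Against PBS and with the block, 3 genes passed without the set 1 PBS array.

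Without 1 array and with no block, these differences changed sign. Such a fit sets 1 set of a treatment against both sets of the other, so the shift between the sets enters the difference. For Ecrg4(71-132) against Fc, Stard4 spanned -1.09 to 0.074 and Abcg1 -1.22 to 0.26. With the block both kept their sign, at -0.70 to -0.31 and -0.77 to -0.19. For Ecrg4(133-148) against Fc, Mylip spanned -0.74 to 0.050 and Stard4 -0.91 to 0.25. The spans with the block were -0.42 to -0.27 and -0.45 to -0.20. For Fc against PBS, Abca1 spanned -0.58 to 1.08, Ch25h -0.0096 to 1.05 and Scd2 -0.99 to 0.68. Ch25h kept its sign with the block, at 0.28 to 0.75. For Ecrg4(133-148) against PBS, Abca1 spanned -0.39 to 1.27 and Mylip -0.76 to 0.029. The spans with the block were 0.026 to 0.86 and -0.54 to -0.18. With the block, Abca1 spanned -1.03 to 0.12 for Ecrg4(133-148) against Ecrg4(71-132). It changed sign for Fc against PBS to -0.081 without the Fc set 1 array and to -0.17 without the PBS set 2 array, and Scd2 to 0.088 without the Fc set 1 array. Without 1 array and with no block, Ch25h spanned 1.44 to 2.49 for Ecrg4(71-132) against Fc and 0.48 to 1.54 for Ecrg4(133-148) against Fc, Fasn 0.20 to 0.73 between the fragments, and Abca1 0.067 to 1.73 for Ecrg4(71-132) against PBS.

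Between the sets, 11333 genes passed, 18666 with no filter on dim probes, which tests more genes. The call of Ch25h was lost with no treatment term (adjusted p = 0.423). Calls were 61.5% higher, and 52.5% with quantile and 53.4% with median scaling. Median scaling moved the all-gene median of Ecrg4(71-132) against PBS by over 0.1, to 0.16, and that of Ecrg4(133-148) against PBS to 0.15. No member's set difference changed sign in any alternative.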

Other observations

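Among the genes of the same pathways outside the 34, Gramd1b, which carries cholesterol from the plasma membrane to the endoplasmic reticulum, was over 1.5-fold higher under both fragments than under Fc in both sets. Its log2 signal was 3.80 in set 2 and 3.36 in set 1 under Ecrg4(71-132), and 3.21 and 3.32 under Ecrg4(133-148), against 2.52 and 2.67 under Fc and 2.55 and 2.54 under PBS. The 4 arrays of the fragments lay above the 4 arrays of the controls. The differences from Fc were 0.99 ± 0.19 for Ecrg4(71-132) and 0.67 ± 0.19 for Ecrg4(133-148) (SE, 2 arrays a group), and neither passed (limma adjusted p = 1 for each, and in the fit with the block 0.205 and 0.836).

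Lpin1 had 0.45 in set 2 and -1.45 in set 1 under Ecrg4(71-132), and 1.16 and -1.22 under Ecrg4(133-148), against 1.62 and -0.71 under Fc and 1.85 and -0.39 under PBS. It was lower under both fragments in both sets, and did not pass (limma adjusted p = 1 against Fc for each, and in the fit with the block 0.184 and 0.836). Cyp27a1, which makes another oxysterol, was -0.66 under Ecrg4(71-132) against Fc but well above background on 3 of the 8 arrays. Cyp7b1, which breaks oxysterols down, was -2.55 under Fc against PBS and well above background on 5 arrays.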
